A study of Mus musculus with 6 samples.

Results

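The 44 genes described here encode the machinery that copies DNA in S phase. They were chosen by name from the 41709 genes of the deposited table, and all 44 had enough counts to be tested. By role they comprise 6 genes of origin licensing, 13 of the replicative helicase and its helpers, 8 of the polymerases and primase, 6 of the sliding clamp and its loader, 5 of single-strand binding and Okazaki fragment joining, 5 of nucleotide supply, and Uhrf1. RNA was measured in 6 mouse libraries made from the posterior nasal septum, which holds both mucosa and bone. Mice of the control group (3 libraries, numbered 4, 5 and 6) ate a diet with sufficient zinc, and mice of the zinc-deficient group (3 libraries, also numbered 4, 5 and 6) ate a zinc-deficient diet, in both groups between week 4 and week 8 of life. Strain, sex, the number of mice behind a library and any injury of the epithelium are not stated in the labels. The title of the study places the comparison in the context of regeneration of the olfactory epithelium.

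Replication starts when the origin recognition complex, Cdc6 and Cdt1 load rings of Mcm2 to Mcm7 onto DNA, and it fires when Cdc45 and GINS turn each ring into a moving helicase. Polymerases and primase then copy both strands, held by the Pcna clamp that replication factor C loads, and ribonucleotide reductase and its partners supply the deoxynucleotides. Many of these genes are expressed mainly in dividing cells, where E2F transcription factors switch them on before S phase. In the olfactory mucosa the dividing cells are largely basal cells of the epithelium, and bone brings marrow with dividing blood precursors. Zinc is a structural part of several of these proteins, among them Mcm10 and the large RPA subunit.

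Transcripts of most replication genes were higher in the zinc-deficient libraries, but none of the 44 differences passed the test across all genes. The log2 fold change of zinc-deficient over control was positive for 38 members and negative for 6 (Orc2, Mcm8, Pola1, Pole, Rfc1 and Rfc5), against 49.7% positive among all 18427 genes tested. Its median was 0.36 over the members and -0.0021 over all genes tested. By edgeR's quasi-likelihood test with Benjamini-Hochberg adjustment at 0.05, 0 members and 22 genes in all (0.119%) passed, 16 of the 22 (0.0868% of genes tested) with higher counts on the zinc-deficient diet. At an unadjusted p under 0.05, 15 members were higher and 0 lower, where the background was 6.4% of genes higher and 6.46% lower. In bulk tissue such as this, a difference in the number of dividing cells and a difference in RNA per cell cannot be told apart. For 17 members every zinc-deficient library lay above every control library, and for 0 members below, where the background was 9.56% of genes above and 9.31% below.

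DESeq2 with the same design passed 4 members, Cdc6 (ENSMUSG00000017499), Mcm5 (ENSMUSG00000005410), Rrm2 (ENSMUSG00000020649) and Uhrf1 (ENSMUSG00000001228), each higher on the zinc-deficient diet, against 200 of 17393 genes (1.15%) higher in all and 344 (1.98%) in either direction. The same 4 are in the authors' deposited table of genes past their threshold, 393 of the 41709 genes listed. That comparison used the same libraries, so it is no separate support. It gave log2 fold changes of 1.43 for Cdc6, 1.27 for Mcm5, 1.52 for Rrm2 and 1.24 for Uhrf1. The adjusted p-values in the authors' deposited table were 0.0358, 0.00109, 0.00116 and 0.000337, in the same order. The edgeR adjusted p was 0.182 for Cdc6, 0.0849 for Mcm5, 0.151 for Rrm2 and 0.096 for Uhrf1. DESeq2 was run without edgeR's low-count filter, and edgeR without that filter passed Mcm5 (adjusted p = 0.0065), Rrm2 (0.0466) and Uhrf1 (0.0040) but not Cdc6 (0.0596), with 0.372% of genes higher. Without control library 4, 1 member, Rrm2, passed edgeR (adjusted p = 0.0294, and up to 0.312 with another library left out), with 45 of 19094 genes (0.236%) higher. In all, 50 genes passed without control 4 and 9 passed without control 5, control 6 or zinc-deficient 5. Whether a library stands for 1 mouse is not stated, so the p-values cover the spread from library to library, which may be partly technical.

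**Figure D1:**
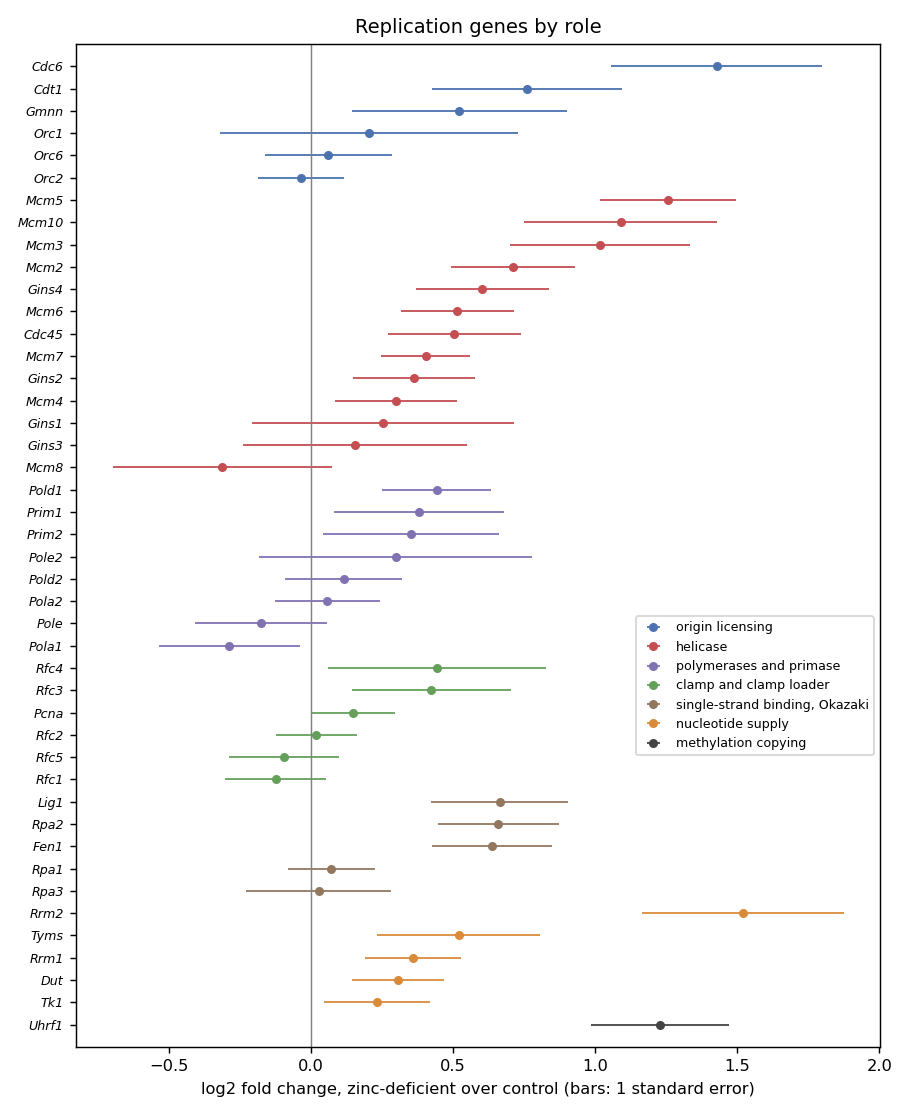
Log2 fold change (zinc-deficient over control, x axis) of each of the 44 members (y axis), with bars of 1 standard error, coloured by role. Rrm2, Cdc6, Mcm5 and Uhrf1 lie farthest to the right, between 1.23 and 1.52, and Rfc1, Rfc2 and Rfc5 of the clamp loader lie around 0.

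The promoters of the members with the smallest p that hold an E2F-type sequence are shown beside that of Rpa3, whose p was the largest of all members and whose promoter holds none. Each window is RefSeq sequence on GRCm38.p6, from 250 bases before to 50 bases after the annotated start of transcription, written 5′ to 3′ on the strand of the gene. Capitals mark the forms TTTCCCGC, TTTCGCGC, TTTGCCGC or TTTGGCGC, searched on both strands. The windows are chr8:75109259-75109558 on the plus strand for Mcm5, chr17:56304063-56304362 on the plus strand for Uhrf1, chr11:98907901-98908200 on the plus strand for Cdc6 and chr6:8259092-8259391 on the minus strand for Rpa3.
Mcm5: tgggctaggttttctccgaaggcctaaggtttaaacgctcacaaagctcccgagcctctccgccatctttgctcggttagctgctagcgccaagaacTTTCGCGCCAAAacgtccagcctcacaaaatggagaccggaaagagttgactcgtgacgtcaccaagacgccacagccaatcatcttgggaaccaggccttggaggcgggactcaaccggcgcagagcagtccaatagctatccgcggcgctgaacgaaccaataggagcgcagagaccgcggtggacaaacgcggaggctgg
Uhrf1: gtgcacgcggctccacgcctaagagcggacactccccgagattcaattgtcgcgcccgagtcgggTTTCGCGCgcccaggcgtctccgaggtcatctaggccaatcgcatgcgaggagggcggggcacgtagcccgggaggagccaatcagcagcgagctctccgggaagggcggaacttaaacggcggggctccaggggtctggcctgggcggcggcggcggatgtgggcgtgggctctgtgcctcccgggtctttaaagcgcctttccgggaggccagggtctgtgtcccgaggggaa
Cdc6: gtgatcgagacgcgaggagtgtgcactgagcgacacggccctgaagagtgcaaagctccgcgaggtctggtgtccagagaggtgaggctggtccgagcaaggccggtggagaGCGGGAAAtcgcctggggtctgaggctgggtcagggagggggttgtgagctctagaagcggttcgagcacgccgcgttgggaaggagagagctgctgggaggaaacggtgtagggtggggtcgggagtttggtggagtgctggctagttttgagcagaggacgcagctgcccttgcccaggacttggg
Rpa3: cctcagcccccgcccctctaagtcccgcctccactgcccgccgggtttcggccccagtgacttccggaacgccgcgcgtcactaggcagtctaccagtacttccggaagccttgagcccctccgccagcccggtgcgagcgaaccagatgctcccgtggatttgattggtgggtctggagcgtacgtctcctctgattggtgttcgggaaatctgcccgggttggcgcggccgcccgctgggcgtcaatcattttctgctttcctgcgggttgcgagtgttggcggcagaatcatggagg
In the Mcm5 window, TTTCGCGC on the strand shown and TTTGGCGC on the opposite strand overlap in a run that starts at -153 from the start of transcription. The Uhrf1 window shown has TTTCGCGC at -185, and the Cdc6 window has TTTCCCGC on the opposite strand at -138. Uhrf1 has 2 windows, and only 1, the window shown, holds such a form. Of the 36 members with a window in the RefSeq table, 15 (41.7%) held such a form, against 2.6% of all 27025 genes with a window and 4.05% of 13525 genes tested. Over windows of equal length the shares were 34.9% of 43 member windows and 2.26% of 32851 windows in all. The letters CCAAT stood in 66.7% of members with a window (41.1% of all genes and 42.1% of genes tested). The GC box GGGCGG stood in 75% (38.2% and 60.9%), and the forms TTTGAA or TTCGAA in 19.4% (21.7% and 17.8%), all on either strand.

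Members with and without the E2F-type letters overlapped widely in their difference between the diets. The median log2 fold change was 0.44 over the 15 members with a form (range -0.31 to 1.43) and 0.31 over the 21 members without (range -0.12 to 1.52). Rrm2, the member with the largest difference, and Mcm2, Mcm10, Rpa2 and Fen1 are among those without a form in this window. Pola1 and Mcm8, with the most negative differences, are among those with one. The 8 members without a window are Gmnn, Mcm4, Gins1, Gins2, Gins4, Prim2, Pole and Rfc2.

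Among the genes of origin licensing, Cdc6 stood apart from the origin recognition complex. Cdc6, the ATPase that helps load the Mcm ring, gave 2.72, 2.23 and 1.50 CPM (counts scaled to the TMM-adjusted size of the library) in control libraries 4, 5 and 6, and 8.32, 5.20 and 3.88 CPM in zinc-deficient libraries 4, 5 and 6. All 3 zinc-deficient values lay above the controls and zinc-deficient 4 was the highest. The log2 fold change was 1.43 ± 0.37 (SE), and without zinc-deficient 4 it was 1.09. Cdt1, the partner of Cdc6 in loading, averaged 4.87 ± 2.28 CPM (SD, n = 3) in controls and 8.26 ± 1.71 CPM in zinc-deficient libraries, with overlapping ranges and a log2 fold change of 0.76 ± 0.33. Gmnn encodes geminin, which holds Cdt1 in check, and its log2 fold change was 0.52 ± 0.38. The origin subunits differed less: Orc1 had a log2 fold change of 0.20 ± 0.52 and Orc6 of 0.06 ± 0.22. Orc2, with the largest p of the role, gave 28.5, 29.6 and 24.1 CPM in controls and 24.9, 27.9 and 27.3 CPM in zinc-deficient libraries, so the zinc-deficient range lay within the control range. Orc3, Orc4 and Orc5, subunits of the same complex outside the 44, had log2 fold changes of -0.16, -0.15 and -0.19.

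In the helicase role 8 of 13 members had separate ranges, all higher, where the background was 9.56% of genes. The count in nucleotide supply was 4 of 5. Of the 13 helicase log2 fold changes 12 were positive (median 0.51), against 49.7% of all genes tested. The Mcm2 to Mcm7 ring summed to 95.2, 74.5 and 70.5 CPM in control libraries and to 136.0, 117.4 and 111.4 CPM in zinc-deficient libraries. These sums did not overlap, and their means were 80.1 ± 13.2 and 121.6 ± 12.8 CPM (SD, n = 3), a ratio of 1.52. The subunits work in a ring with 1 copy of each, yet their transcripts did not differ between the diets to the same extent.

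Mcm5 had the smallest p of all 44 members. It gave 7.62, 5.88 and 4.45 CPM in controls and 15.8, 14.5 and 12.5 CPM in zinc-deficient libraries, with a log2 fold change of 1.26 ± 0.24. The lowest zinc-deficient library was well above the highest control. Mcm3 gave 10.3, 3.74 and 6.35 CPM in controls and 16.7, 12.6 and 12.1 CPM in zinc-deficient libraries, a log2 fold change of 1.02 ± 0.32. Mcm2 gave 16.0, 12.6 and 9.75 CPM against 24.5, 21.2 and 17.2 CPM, a log2 fold change of 0.71 ± 0.22. In both genes the ranges were separate, and in Mcm2 the gap between control 4 and zinc-deficient 6 was small. Mcm6 gave 18.4, 13.0 and 14.2 CPM against 26.5, 19.9 and 18.9 CPM, a log2 fold change of 0.52 ± 0.20. Mcm7 gave 28.6, 27.2 and 24.1 CPM against 41.0, 33.1 and 31.7 CPM, a log2 fold change of 0.40 ± 0.16. Both were separate by narrow gaps. Mcm4 was the exception in the ring, with 14.2, 12.0 and 11.6 CPM in controls, 11.4, 16.1 and 19.0 CPM in zinc-deficient libraries and overlapping ranges. Zinc-deficient 4, the highest library for the other 5 subunits, was the lowest of all 6 for Mcm4.

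**Figure D2:**
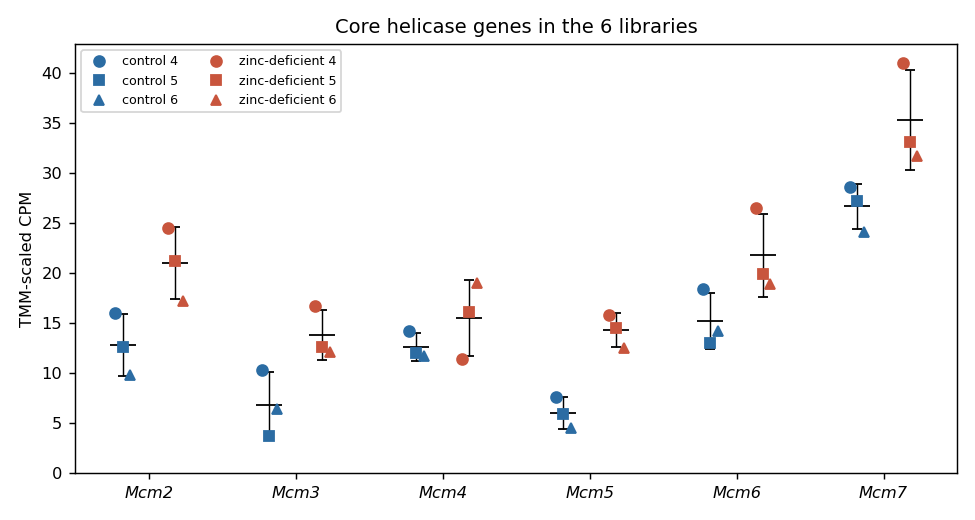
TMM-scaled CPM (y axis) of Mcm2 to Mcm7 (x axis) in each library, blue for control and red for zinc-deficient, with the mean and 1 SD of each diet (n = 3) as bars. The diets are separate for all but Mcm4, where zinc-deficient 4 lies lowest.

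Levels of different genes were compared by the deposited RPKM, which corrects for transcript length. The ratio of Mcm5 to Mcm7 in RPKM was 0.295, 0.240 and 0.204 in controls and 0.428, 0.486 and 0.437 in zinc-deficient libraries. This pair was chosen after its values were seen, so the gap between the diets is a description. Mcm7 was the more abundant of the pair in every library.

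The genes that join or help the ring were mixed. Mcm10, which helps start the helicase, averaged 2.30 ± 0.346 CPM in controls and 4.93 ± 1.65 CPM in zinc-deficient libraries (SD, n = 3), with a log2 fold change of 1.09 ± 0.34. Cdc45, the helicase activator, averaged 5.13 ± 0.587 and 7.28 ± 0.323 CPM, a log2 fold change of 0.51 ± 0.24. Both had separate ranges. No test between the GINS subunits was run. Their log2 fold changes were 0.60 ± 0.23 for Gins4, 0.36 ± 0.21 for Gins2, 0.25 ± 0.46 for Gins1 and 0.16 ± 0.40 for Gins3. Only Gins4 of these had separate ranges. Gins3, with the largest p of the role, gave 2.33, 1.75 and 2.09 CPM in controls and 1.62, 2.08 and 3.14 CPM in zinc-deficient libraries, and its ranges overlapped. Mcm8, a paralogue known for its part in homologous recombination, averaged 2.54 ± 0.540 CPM in controls and 2.05 ± 0.554 CPM in zinc-deficient libraries, with a log2 fold change of -0.31 ± 0.39. Its relative Mcm9, outside the 44, had a log2 fold change of 0.01.

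The polymerases and primase showed smaller differences, with a median log2 fold change of 0.21. Of the 8, 0 had separate ranges, where the background was 9.56% of genes above and 9.31% below. With so few genes, a count of 0 is near that background. Pold1, the catalytic subunit of polymerase delta, which copies the lagging strand, had the smallest p of the role. It gave 19.1, 25.4 and 19.7 CPM in controls and 36.3, 25.3 and 25.7 CPM in zinc-deficient libraries, a log2 fold change of 0.44 ± 0.19 (0.26 without zinc-deficient 4). Zinc-deficient 4 was clear of the controls, and the other zinc-deficient libraries lay at the level of control 5. Pold2, the second subunit, had a log2 fold change of 0.12 ± 0.21. The catalytic subunits Pola1 of polymerase alpha and Pole of polymerase epsilon had negative values, -0.29 ± 0.25 and -0.18 ± 0.23. Pole2, the partner of Pole, had 0.30 ± 0.48, and the primase subunits Prim1 and Prim2, which lay the RNA primers, had 0.38 ± 0.30 and 0.35 ± 0.31. Pola2, with the largest p of the role, gave 13.1, 13.0 and 13.5 CPM in controls and 16.1, 13.2 and 12.0 CPM in zinc-deficient libraries. The summed CPM of the role averaged 86.8 ± 12.2 in controls and 94.9 ± 7.49 in zinc-deficient libraries (SD, n = 3), which overlapped.

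The sliding clamp and its loader were the role nearest to equal between the diets, with a median log2 fold change of 0.083. Separate ranges were found for 0 of 6, which is near the background of 9.56% of genes above and 9.31% below. Pcna, the ring that tethers the polymerases, averaged 25.2 ± 2.19 CPM in controls and 27.9 ± 1.49 CPM in zinc-deficient libraries (SD, n = 3), a log2 fold change of 0.15 ± 0.15. Rfc1 to Rfc5, the loader, summed to 102.3 ± 14.4 CPM in controls and 100.3 ± 5.80 CPM in zinc-deficient libraries, a ratio of 0.98. Rfc3 had the smallest p of the role, with 5.13, 3.82 and 4.97 CPM in controls, 4.64, 6.36 and 7.65 CPM in zinc-deficient libraries and a log2 fold change of 0.42 ± 0.28. Rfc2 had the largest, with 31.3, 37.9 and 32.7 CPM in controls, 35.5, 35.5 and 32.4 CPM in zinc-deficient libraries and 0.02 ± 0.14. In both genes the ranges overlapped. Rfc4 had a log2 fold change of 0.44 ± 0.38, Rfc5 of -0.09 ± 0.19 and Rfc1, the large subunit, of -0.12 ± 0.18.

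Of the 5 genes of single-strand binding and Okazaki fragment joining, 3 had separate ranges, all higher (background 9.56% of genes). Lig1, the ligase that seals the fragments, averaged 15.5 ± 2.18 CPM in controls and 24.6 ± 8.87 CPM in zinc-deficient libraries (SD, n = 3), with a log2 fold change of 0.66 ± 0.24 (0.34 without zinc-deficient 4). Fen1, the nuclease that trims their flaps, averaged 10.5 ± 0.734 and 16.3 ± 3.98 CPM, a log2 fold change of 0.64 ± 0.21. The wide spread of both in the zinc-deficient group came with a high value in zinc-deficient 4, 34.7 CPM for Lig1 and 20.8 CPM for Fen1. Without that library the median log2 fold change of the role was 0.34, against 0.64 with it. Of the 3 subunits of RPA, which form 1 complex on single-stranded DNA, Rpa2 had the largest log2 fold change. Rpa2 gave 6.92, 7.08 and 6.08 CPM in controls and 11.9, 9.25 and 10.6 CPM in zinc-deficient libraries, a log2 fold change of 0.66 ± 0.21. Rpa3 gave 9.80, 5.57 and 7.33 CPM against 8.32, 7.97 and 6.86 CPM, a log2 fold change of 0.03 ± 0.25. Rpa1, the large subunit, had 0.07 ± 0.15. Only the ranges of Rpa2 were separate.

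All 5 genes of nucleotide supply had positive log2 fold changes, and 4 had separate ranges, all higher (background 9.56% of genes). Rrm2, the small subunit of ribonucleotide reductase that carries its radical and is made mainly in S phase, had the largest log2 fold change of the 44, 1.52 ± 0.35. It gave 8.40, 4.61 and 2.49 CPM in controls and 16.6, 13.3 and 14.4 CPM in zinc-deficient libraries. The zinc-deficient libraries were close together, and the controls were widely spread. Rrm1, the large subunit, gave 21.2, 16.3 and 22.5 CPM in controls and 27.5, 25.1 and 24.5 CPM in zinc-deficient libraries, with a log2 fold change of 0.36 ± 0.17. The ratio of Rrm2 to Rrm1 in RPKM, a pair chosen after its values were seen, was 1.58, 1.12 and 0.439 in controls and 2.40, 2.11 and 2.34 in zinc-deficient libraries. Rrm2b, the small subunit used outside S phase and no member of the 44, had a log2 fold change of 0.06 ± 0.24. Tyms, which makes thymidylate, had 0.52 ± 0.29, and Dut, which removes dUTP, had 0.31 ± 0.16. Tk1, the thymidine kinase of S phase and the largest p of the role, gave 15.9, 15.1 and 12.2 CPM in controls and 19.2, 16.2 and 15.4 CPM in zinc-deficient libraries. Control 4 and zinc-deficient 6 overlapped for Tk1.

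Uhrf1 brings the methyltransferase Dnmt1 to newly copied DNA so that methylation is carried over. It gave 10.3, 8.67 and 5.17 CPM in controls and 20.1, 18.3 and 18.2 CPM in zinc-deficient libraries, a log2 fold change of 1.23 ± 0.24. The ranges were far apart, and the zinc-deficient libraries were within a narrow band. Dnmt1 itself averaged 64.1 ± 9.42 CPM in controls and 75.7 ± 1.41 CPM in zinc-deficient libraries (SD, n = 3), a log2 fold change of 0.24 ± 0.13.

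**Figure D3:**
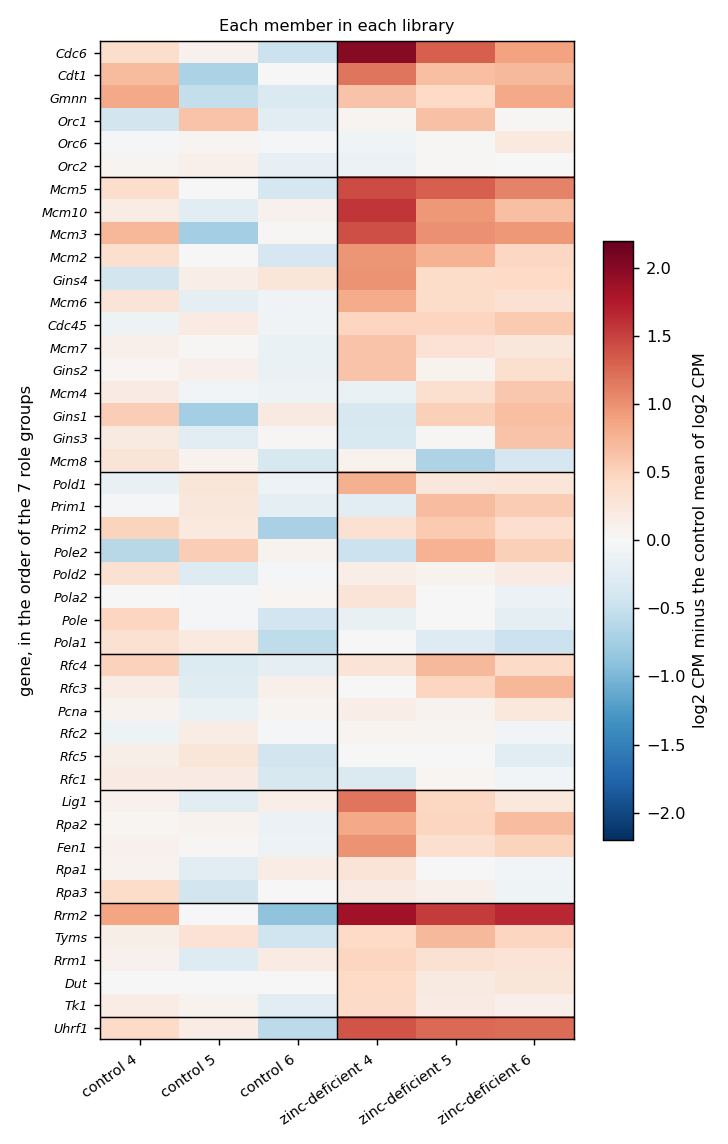
Log2 CPM minus the control mean of log2 CPM (colour) for each of the 44 members (rows, in order of role) in each of the 6 libraries (columns). Red fills most of the zinc-deficient columns for licensing factors, helicase, fragment joining and nucleotide supply, and the rows of Pcna, Rfc1, Rfc2 and Rfc5 stay pale.

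The members did not follow a common order across libraries. The mean log2 CPM over the 44 genes was 3.21, 2.99 and 2.87 in control libraries 4, 5 and 6 and 3.49, 3.42 and 3.39 in zinc-deficient libraries 4, 5 and 6. Zinc-deficient 4 was the highest of its diet for 25 members and the lowest for 13, among them Mcm4, Cdc45, Prim1, Prim2, Pole2 and Tyms. Of all genes tested, 41% were lowest of their diet in zinc-deficient 4, a larger share than among the members. Control 4 was the highest control for 26 members. Without zinc-deficient 4 the median log2 fold change of the members was 0.35, 36 were positive, and 12 had an unadjusted p under 0.05 and were higher (background 6.31%).

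By RPKM the members were low to moderate in this tissue. Over the 6 libraries the highest means were 5.50 RPKM for Pcna, 5.13 for Gins4 and 4.25 for Rpa1, and the lowest were 0.149 for Orc1 and 0.234 for Mcm10. Pcna was above Gins4 in each control library and in zinc-deficient 5 and 6, but not in zinc-deficient 4. In control libraries 4, 5 and 6 Pcna had 5.43, 4.31 and 5.26 RPKM and Gins4 2.97, 4.06 and 4.64 RPKM. In zinc-deficient libraries 4, 5 and 6 Pcna had 5.53, 5.82 and 6.63 RPKM and Gins4 7.55, 5.64 and 5.93 RPKM. Their zinc-deficient means, 5.99 ± 0.570 for Pcna and 6.37 ± 1.03 RPKM for Gins4 (SD, n = 3), differed by less than their spread. In 16 members the mean was under 1 RPKM. The log2 fold change did not follow the level (Spearman's rho across the 44 genes -0.084, given as a description since the genes share libraries). The standard error of the log2 fold change ran from 0.14 for Rfc2 to 0.52 for Orc1. Together the 44 genes held between 0.0441% and 0.0678% of each library's counts.

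**Figure D4:**
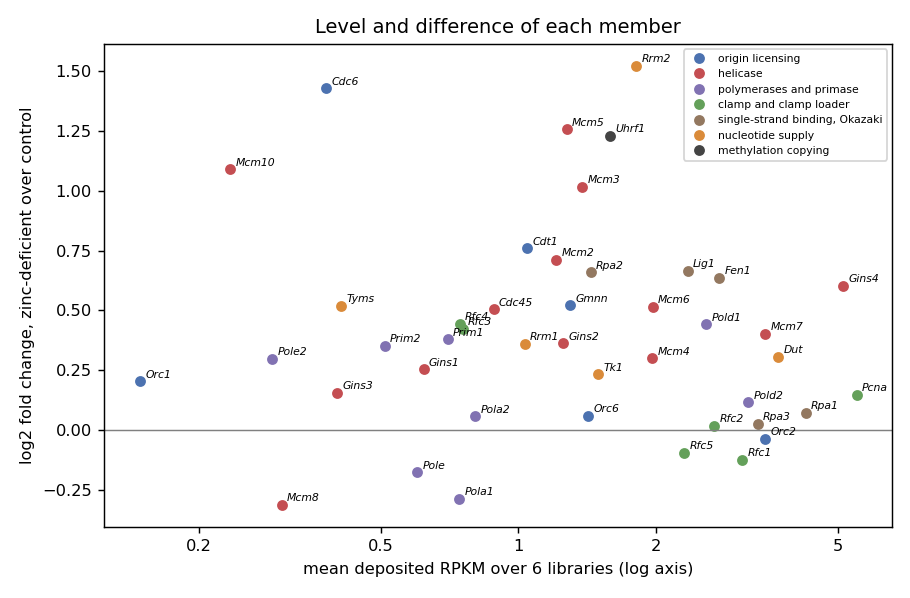
Log2 fold change (y axis) against the mean deposited RPKM over the 6 libraries (x axis, log scale) for each member, coloured by role. Large differences appear both at low level (Cdc6) and at moderate level (Rrm2, Mcm5 and Uhrf1), and the highest members, Pcna, Gins4 and Rpa1, spread from 0.07 to 0.60.

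Other genes of replication, outside the 44, leaned the same way to a smaller extent. Of 42 tested, 34 had positive log2 fold changes (background 49.7%) with a median of 0.13. At an unadjusted p under 0.05, 5 were higher and 0 lower (background 6.4% and 6.46% of genes). The adjusted test of edgeR or of DESeq2 passed 0 of them. Those with the smallest p were Ticrr, which helps fire origins (1.12 ± 0.34), Chaf1a, which places histones on new DNA (0.46 ± 0.17), and the topoisomerase Top2a (0.56 ± 0.22), all as log2 fold changes with their SE. The list's most abundant genes by RPKM, Chtf8 of an alternative clamp loader and the histone chaperone Ssrp1, had 0.26 ± 0.13 and 0.16 ± 0.12. Replication-dependent histone genes, whose transcripts are made in S phase, had a median log2 fold change of 1.33 over 58 tested. Of them, 14 rose past edgeR's adjusted test (background 0.0868% of genes), with log2 fold changes from 0.85 (H1f4) to 2.87 (H2bc7). The others of the 14 were H1f3, H2ac10, H2ac11, H2ac13, H2ac22, H2bc12, H3c6, H3c10, H3c13, H4c1, H4c2 and H4c6, and reads of such near-identical genes may be shared among copies.

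Genes that control entry into S phase were split. Of 31 tested, 19 log2 fold changes were positive (median 0.041). At an unadjusted p under 0.05, 7 were higher and 2 lower (background 6.4% and 6.46% of genes). The adjusted test of edgeR passed 0, and DESeq2 passed 3, all higher (background 1.15% higher). E2f2, an activating E2F factor, gave 17.5, 9.30 and 6.61 CPM in controls and 47.8, 33.7 and 28.1 CPM in zinc-deficient libraries, and its log2 fold change was 1.72 ± 0.35. The adjusted p was 0.144 by edgeR and 7.47e-06 by DESeq2. Its ranges were separate. DESeq2 also passed E2f8, a repressing E2F factor (log2 fold change 1.22 ± 0.33, adjusted p = 0.0347), and Ccna2, cyclin A2 (8.75 ± 3.82 CPM in controls and 17.5 ± 1.71 CPM in zinc-deficient libraries, SD, n = 3, adjusted p = 0.0377). E2f1, the other activating factor followed here, had 0.68 ± 0.28, E2f7 had 0.26 ± 0.25, and Cdkn2d, an inhibitor of the cyclin D kinases, had 0.69 ± 0.19. The cyclin E genes Ccne1 and Ccne2 had 1.20 ± 0.56 and -0.13 ± 0.41 at low counts. Cdk2, the kinase they drive, had 0.29 ± 0.20, and its inhibitor Cdkn1a had -0.10 ± 0.15.

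Further enzymes of nucleotide synthesis had a median log2 fold change of 0.061 over 25 tested, 17 of them positive. At an unadjusted p under 0.05, 3 were higher and 0 lower (background 6.4% and 6.46% of genes). DESeq2 (background 1.15% of genes higher) passed the salvage kinase Dck (0.71 ± 0.17, adjusted p = 0.0443) and Impdh1 of guanine nucleotide synthesis (0.53 ± 0.14, adjusted p = 0.0266). Genes of the damage response and the replication checkpoint had a median of 0.050 over 27 tested. Of the 27, 3 were higher and 3 lower at an unadjusted p under 0.05 (background 6.4% and 6.46%). Among them Gadd45a and Bard1 had 0.68 ± 0.20 and 0.87 ± 0.29, and the kinase Atm had -0.46 ± 0.16. In these 2 lists 0 genes passed edgeR's adjusted test, and in the damage list 0 passed DESeq2. All 25 genes of G2 and mitosis had positive log2 fold changes (median 0.79), and 11 were higher at an unadjusted p under 0.05 (background 6.4%). Of the 25, 0 passed edgeR's adjusted test and 4 passed DESeq2, all higher (background 1.15% higher). Mki67, a common marker of cycling cells, gave 73.0, 44.1 and 15.5 CPM in controls and 80.8, 104.0 and 82.6 CPM in zinc-deficient libraries, a log2 fold change of 1.01 ± 0.56.

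Most markers of dividing blood precursors had positive log2 fold changes, as most members did, although the summed CPM of their lists did not all follow. Of 24 erythroid genes tested, 23 had positive log2 fold changes (median 1.34), and their summed CPM ran from 853 to 2320 in controls and from 1998 to 5056 in zinc-deficient libraries. Of 15 neutrophil precursor genes, 14 were positive (median 1.67), and their sums ran from 421 to 2442 CPM in controls and from 712 to 1488 CPM in zinc-deficient libraries, mostly Ltf. Of 18 genes of developing B cells tested, 15 were positive (median 1.01), and their sums ran from 499 to 534 CPM and from 418 to 609 CPM. The lowest log2 fold change was -1.01 among the neutrophil precursor genes and -0.78 among the B cell genes. Of the B cell genes, 4 were higher and 1 lower at an unadjusted edgeR p under 0.05 (background 6.4% and 6.46%), and DESeq2 passed 1 higher and 1 lower. Among the defining markers, some of them named after their values were seen, Ctsg and Fcnb had 0 counts in control 6. Ms4a3 and Igll1 had 0 in control 5, and Vpreb2 had 0 in every control. Igll1, of the surrogate light chain of B cell precursors, was the 1 gene of these lists that passed edgeR's adjusted test.

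The average over these 3 lists of their mean log2 CPM, called the marrow score here, was 3.60, 2.51 and 1.59 in control libraries 4, 5 and 6 and 4.01, 4.15 and 3.98 in zinc-deficient libraries. The diets did not overlap in it, so marrow content and diet cannot be told apart in these 6 libraries. The score was widely spread in the controls and nearly level on the zinc-deficient diet, so a slope fitted to it rests mainly on the controls. Its parts were not level in zinc-deficient libraries 4, 5 and 6. There the erythroid mean was 5.47, 4.54 and 4.30 and the B cell mean 2.68, 3.86 and 3.90. In these parts the diets overlapped, as control 4 had 4.41 (erythroid) and 3.02 (B cell). The neutrophil precursor means did not overlap. In a fit with the score as a covariate, the median log2 fold change of the members was 0.22, 31 of 44 were positive (background 50.2%), 1 (Gins4) was higher at an unadjusted p under 0.05 (background 2.68%) and 2 (Pola1 and Pole) were lower. The log2 fold change in that fit was 0.71 for Mcm5, 0.43 for Rrm2, 0.57 for Uhrf1 and 0.85 for Cdc6, and 1 gene in all passed the adjusted test. The same fit gave a median of 0.024 for the genes of G2 and mitosis (14 of 25 positive), -0.077 for the other replication genes (16 of 42 positive) and 0.89 for the histone genes (56 of 58 positive). Basal cell genes of the olfactory epithelium were split in sign, with 10 of 20 positive and a median of 0.0096. Their summed CPM ran from 620 to 737 in controls and from 631 to 695 in zinc-deficient libraries. Of these 20 genes, 2 were higher and 4 lower at an unadjusted edgeR p under 0.05 (background 6.4% and 6.46%). Ranges were separate for 2 higher and 4 lower (background 9.56% and 9.31%). Among them Lgr5, a stem cell marker, was lower (-1.03 ± 0.21; edgeR adjusted p = 0.105, DESeq2 adjusted p = 0.00338), and Cxcr4, a chemokine receptor gene, was higher (0.87 ± 0.22; edgeR adjusted p = 0.181, DESeq2 adjusted p = 0.0289).

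**Figure D5:**
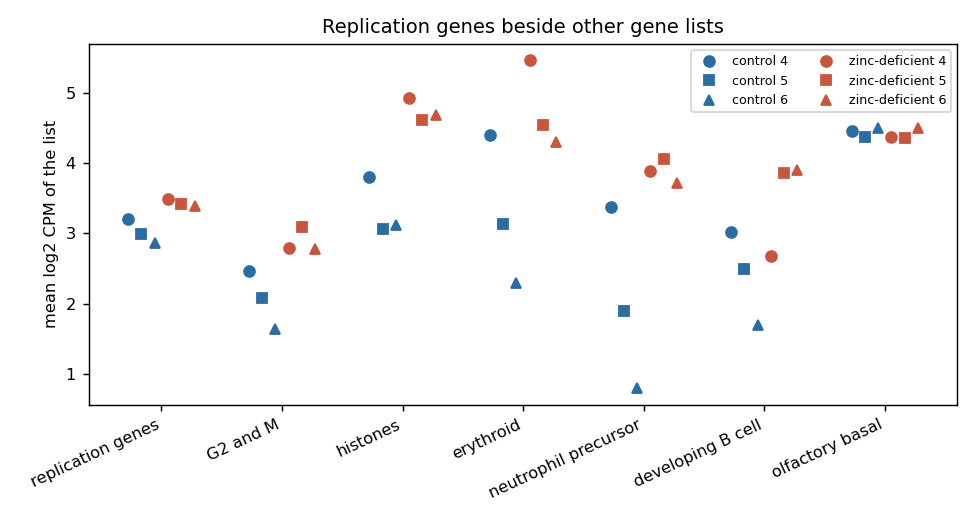
Mean log2 CPM (y axis) of the replication genes and of 6 other lists (x axis) in each library, blue for control and red for zinc-deficient. Control 4 is the highest control for every list but the olfactory basal genes, which differ little between libraries.

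Marker lists of the tissue named in the labels were expressed, and those of neurons and of bone and cartilage leaned in opposite directions between the diets. The 15 olfactory neuron genes summed to between 6928 and 8301 CPM in controls and between 9330 and 10840 CPM in zinc-deficient libraries, all 15 with positive log2 fold changes (median 0.35). Of these 15, 8 were higher and 0 lower at an unadjusted edgeR p under 0.05 (background 6.4% and 6.46% of genes). Ranges were separate for 8, all higher (background 9.56%). Genes of sustentacular and respiratory cells summed to between 8627 and 13861 CPM, with Scgb1a1 at 0 in every library. Genes of bone and cartilage summed to between 13290 and 21517 CPM in controls and between 7921 and 15842 CPM in zinc-deficient libraries (median log2 fold change -0.55, 15 of 19 negative). Of these 19, 10 were lower and 0 higher at an unadjusted edgeR p under 0.05 (background 6.46% and 6.4%). Ranges were separate for 6, all lower (background 9.31%), and DESeq2 passed 4, all lower (background 1.98% in either direction). The cause of these differences was not tested. The library totals ran from 11731999 to 18727863 counts. On the coordinates of the deposited table, 20 of the 44 members overlap another listed gene, for example Mcm7 with Ap4m1, Gins2 with Gse1 and Rfc4 with Eif4a2, and since no source states that strand was used in counting, reads there may be shared. Cdc6, Mcm5, Rrm2 and Uhrf1 overlap no other listed gene. Pcna and Tyms have named pseudogene copies in the mouse, and how reads of such copies were counted is not stated.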

How the data were processed

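Total RNA of 6 libraries (500 ng each) was depleted of ribosomal RNA and sequenced, per the labels. The authors deposited whole-number counts per gene, RPKM, and their own comparison (a log2 fold change and its raw and FDR-adjusted p-value), per the file headers. Not given in the sources used here are the aligner, counting tool, genome build, annotation and the authors' test. A further 12 per-library columns (TPM and CPM) were not used.

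The test was that of edgeR 4.0.16 under R 4.3.3 (quasi-likelihood, robust, TMM scaling, filterByExpr, diet as the only term, two-sided, Benjamini-Hochberg over all 18427 genes tested at 0.05). CPM values are deposited counts over the TMM-scaled library size, and list means use log2 CPM with a prior count of 2. The SE was derived as the size of the log2 fold change divided by the root of the F statistic. DESeq2 1.42.0, limma 3.58.1, other scalings and count filters, left-out libraries, a replicate block and a marrow score as covariate were alternatives. Limma was run with voom, and on log2 of deposited RPKM plus 1 or 0.1 for genes whose mean reached 1 RPKM in either diet. The marrow score averages the lists of developing B cells, neutrophil precursors and erythroid cells. The test script was checked on simulated counts.

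The members and all gene lists were chosen with earlier results of these data known. All 44 members are named. Values per library are given for Mcm2 to Mcm7, for the smallest and largest p of each role and for genes past the test. From other lists, genes past edgeR's adjusted test are named, otherwise at most the 3 with the smallest p and the 2 with the highest RPKM, beside a fixed set of cell cycle and replication genes (E2f, cyclin, Orc and others). Ctsg, Fcnb, Vpreb2, Scgb1a1 and Ap4m1, Gse1 and Eif4a2 were named after their values or positions were seen. Promoters are RefSeq windows on GRCm38.p6, matched by symbol for 36 of 44 members; coordinates of the deposited table, whose build is not given, were used only for overlaps. No pair of libraries of the same diet agreed within sampling noise. Library totals of 11731999 to 18727863 counts limit the precision of members near 1 CPM, such as Orc1.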

Additional observations from a re-analysis of the deposited data

How the results depend on the processing

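The median log2 fold change of the replication genes stayed positive under every alternative run, and 0 members were called lower in any. The RPKM runs kept genes whose mean reached 1 RPKM in either diet, which favours members that are higher on 1 diet. Mcm5, for example, entered through its zinc-deficient mean (1.83 RPKM, against 0.71 RPKM in controls). The sign of the median in the RPKM runs is therefore no added support. The number of genes called by diet, 22, became 153 with a replicate block, 172 without a low-count filter, 344 with DESeq2, 6 with limma-voom, 9 with log2(RPKM + 0.1), 1 with the marrow score and 67 at an adjusted p of 0.1. Members called higher, 0, became 3 with the replicate block (Mcm5, Rrm2 and Uhrf1; 83 genes higher in all), 3 without the filter (the same genes; 0.372% of genes higher), 4 with DESeq2 and 2 at an adjusted p of 0.1 (0.255% of genes higher). The deviations of same-numbered libraries correlated at -0.048, 0.151 and 0.068 for numbers 4, 5 and 6, not all over 0.1, and not every library correlated best with its own number, so the libraries were not treated as paired. The median of the members was 0.50 with log2(RPKM + 0.1), which tested 29 members. The median of all genes was 0.12 in that run and 0.095 with log2(RPKM + 1). With the marrow score the median of the members was 0.22, and 1 member was higher and 2 lower at an unadjusted p under 0.05. The cause of these moves was not tested, apart from the filters and the looser threshold, which change the genes or the limit themselves.

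Leaving out 1 library gave between 9 (without control 5, control 6 or zinc-deficient 5) and 50 (without control 4) genes called, 0 to 1 members called higher, medians of 0.31 to 0.40, 12 to 15 members higher at an unadjusted p under 0.05 (background 4.71% to 6.96% of genes) and 18 to 25 separate and higher (background 13.3% to 16.7%, against 9.56% with all libraries). In the other direction, 1 member was lower at an unadjusted edgeR p under 0.05 without control 6, and 0 in the other left-out runs. Separate and lower were 4 members without control 6, 1 without zinc-deficient 4 and 0 otherwise. The share of all genes in that direction was not computed for the left-out runs. Members near 0 changed sign there, with ranges of -0.11 to 0.023 for Orc2, -0.36 to 0.10 for Pole, -0.028 to 0.10 for Rfc2, -0.027 to 0.54 for Gins1, -0.016 to 0.30 for Pold2, -0.26 to 0.044 for Rfc5, -0.036 to 0.16 for Rpa1, -0.15 to 0.26 for Rpa3, -0.058 to 0.15 for Pola2, -0.026 to 0.58 for Orc1, -0.029 to 0.14 for Orc6 and -0.15 to 0.35 for Gins3. With log2(RPKM + 1) and log2(RPKM + 0.1), Orc2 (0.063 and 0.079), Rfc1 (0.00042 and 0.0012) and Rfc5 (0.024 and 0.039) became positive. With the marrow score, Gmnn (-0.24), Gins1 (-0.039), Prim2 (-0.45), Pold2 (-0.16), Rfc4 (-0.084), Rpa3 (-0.30) and Tk1 (-0.037) became negative; the cause was not tested. Median-of-ratios and upper-quartile scaling and a minimum of 100 counts changed no call on a member.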
